A study of Rattus norvegicus with 36 samples.

Results

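Synaptic vesicles release their transmitter through a small set of proteins, and the genes of 10 of them were followed here in injured and uninjured rat dorsal root ganglia: Rab3a, Rab3c, Nsf, Vamp1, Vamp2, Syt1, Syt3, Snap25, Stx1a and Syp. They were represented by every probe set whose platform annotation gives only 1 of these symbols, 26 of the 26379 probe sets on the 3 chip types. Vamp1 and Snap25 had 5 probe sets each, Vamp2 had 4, Nsf had 3, Rab3c, Syt3 and Stx1a had 2 each, and Rab3a, Syt1 and Syp had 1 each. The rule that defines the members uses no measured value, but the genes were chosen with earlier results of these data known.

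The ganglia, which hold the cell bodies of sensory neurons, were taken 50 and 28 days after surgery, in 3 conditions. L5 ganglia came from rats with a ligature tied around the L5 spinal nerve, which is used to model nerve-injury pain. L4 ganglia came from such operated rats too, where they lie next to the injured ganglion, and the sham pools mixed L4 and L5 ganglia of sham-operated rats, so that normal differences between these ganglia are part of every comparison. Each of the 6 pools of RNA was hybridised to 2 technical arrays of chip types A, B and C, 36 arrays in all; pools held 30 rats where the labels give a number, and the design text says that no biological replication was possible. Strain, sex and age were not given in the labels. For 1 sham array of chip B the title gives 28 days and the description 50 days, and the title was used.

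In a nerve terminal, vesicles carrying Rab3 proteins, small GTPases, are brought to the release site. There the vesicle SNARE proteins Vamp1 and Vamp2 zip together with the target membrane SNAREs Snap25 and Stx1a and pull the membranes into contact, while synaptotagmins sense the calcium that enters and trigger fusion. The ATPase Nsf then takes the spent SNARE complexes apart for reuse. The cell bodies measured here make these proteins for the central terminals of sensory neurons in the spinal cord, and the mRNA level in the ganglion is not a measure of release.

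The stretches of 250 bases before the transcription start of Vamp1, Nsf and Rab3c are shown because these genes, with Syt3, had the lowest probe set values in L5 relative to sham. For Rab3c this rests on 1 of 2 probe sets, which was bright enough to be tested only through its L4 and sham signals. They are RefSeq sequences of assembly GRCr8, read 5′ to 3′ on the strand of the gene. Capitals mark matches, on either strand, to the CRE (TGACGTCA), the GC box (GGGCGG, or CCGCCC on the other strand) and the CCAAT box (CCAAT, or ATTGG on the other strand); the AP-1 motif (TGANTCA) was searched too. The Vamp1 stretch lies at chr4:159698644-159698893 on the plus strand, the Nsf stretch at chr10:89357384-89357633 on the minus strand and the Rab3c stretch at chr2:43575944-43576193 on the minus strand.
Vamp1: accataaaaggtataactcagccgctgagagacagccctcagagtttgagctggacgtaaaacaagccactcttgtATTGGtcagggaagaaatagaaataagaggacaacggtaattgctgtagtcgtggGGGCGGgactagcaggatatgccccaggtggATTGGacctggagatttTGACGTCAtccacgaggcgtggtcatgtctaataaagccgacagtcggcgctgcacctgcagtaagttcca
Nsf: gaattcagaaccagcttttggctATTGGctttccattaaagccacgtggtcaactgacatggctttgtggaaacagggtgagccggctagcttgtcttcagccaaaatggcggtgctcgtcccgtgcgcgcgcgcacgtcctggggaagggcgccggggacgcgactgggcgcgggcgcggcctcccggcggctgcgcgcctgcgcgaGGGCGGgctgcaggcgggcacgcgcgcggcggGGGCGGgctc
Rab3c: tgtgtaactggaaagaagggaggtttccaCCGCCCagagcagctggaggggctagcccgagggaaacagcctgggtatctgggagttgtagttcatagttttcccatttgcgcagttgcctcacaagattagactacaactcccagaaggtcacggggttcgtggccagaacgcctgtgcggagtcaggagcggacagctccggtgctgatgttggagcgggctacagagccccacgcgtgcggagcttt

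Of the 10 genes 9 were matched in the RefSeq promoter table, and Snap25 was not. All 9 stretches held a GC box, which 30.5% of all 33469 promoters in the table and 38.9% of its 21851 protein-coding ones hold. The CCAAT box was in 4 of 9 (Rab3a, Nsf, Vamp1 and Stx1a), against 34.0% of all promoters, and in Stx1a it shared 1 base with a GC box. A CRE, the site read by cAMP-responsive factors, was found in Vamp1 alone, 71 bases before the start, against 1.59% of all promoters. An AP-1 match, the site read by Fos and Jun dimers, was in 0 of 9 stretches and in 6.34% of all promoters. Vamp2, the close relative of Vamp1, held 3 GC boxes and no match to the CRE or the CCAAT box. These matches describe the letters in this window and do not show that a factor binds.

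Values are intensity signals on the linear scale, with every array brought to a common mean level by the authors, so all differences are relative to that level. Differences were tested on log2(signal + pseudocount) with limma over the 6 pools, which gives n = 2 pools per condition, 1 at each day, and 2 residual degrees of freedom. They are given with the standard error (SE) of the fit, and p-values were adjusted over all 15721 probe sets tested. Of the 26 member probe sets 22 were bright enough to be tested. The other 4 were Syt1 X52772cds_at, Nsf AF089839_at, Nsf AF091834_at and Snap25 U56261_s_at, whose signals ran from 0.8 to 40.6. Syt1, the main calcium sensor of fast release, was therefore not tested at all: its signals were 3.9 and 15.1 in L5 at 50 days, 2.4 and 6.8 in L5 at 28 days, 4.4 and 0.8 in L4 at 50 days, 6 and 3.9 in L4 at 28 days, 3.5 and 1.8 in sham at 50 days and 4.5 and 21.0 in sham at 28 days. The groups overlapped, and such a dim probe set does not show whether the gene is expressed.

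The ligation labels were checked on genes induced by axon injury: Vip (2.72 ± 0.24), Npy (2.03 ± 0.22), Atf3 (1.52 ± 0.21) and Gal (1.50 ± 0.26) rose in L5 against sham (adjusted p = 0.0041 to 0.030). The rest of this list of 8 did not pass (adjusted p = 0.21 to 0.49). Gap43 stood at 0.50 ± 0.19, Sprr1a at 0.33 ± 0.21 and Jun at 0.50 ± 0.35, while Adcyap1 lay below 0, at -0.49 ± 0.20. Between technical arrays r was 0.880 to 0.958 across probe sets, and the tested member probe sets differed between the arrays of a pool by a median of 0.18 on the log2 scale and by 1.69 at most. Probe sets named with _at and _g_at for 1 source sequence (M24104, rc_AI229196 and AB003991) read the same transcript and are not independent. Probe sets ending in _s_at, _f_at or _i_at may read several transcripts. Fewer cells of a type and less RNA per cell cannot be told apart in these pooled ganglia.

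In L5 ganglia most probe sets of the vesicle release genes had a lower level than in sham. The lowest differences were on probe sets of Rab3c, Nsf, Vamp1, Syt3 and Snap25, but other probe sets of Rab3c, Vamp1 and Syt3 lay near or above 0, and the genes were not tested against each other. Of the 22 tested probe sets 20 were below 0, against 46.3% of all probe sets, and the median difference was -0.35, against 0.04 over all. Without the L5 pool of 28 days 15 of 22 were below 0, with a median of -0.20. The count below 0 was 16 without the sham pool of 28 days or with the first technical array of each pool alone, and 18 with quantile normalization. None of the 22 passed the limma test after adjustment, a threshold that 0.763% of all probe sets passed (0.534% as lower). At an unadjusted p under 0.05 there were 7 of 22 lower and 0 higher, against 9.45% and 7.47% of all probe sets. All 4 L5 arrays lay below all 4 sham arrays for 6 of 22, against 7.58% of all probe sets, and 0 lay above, against 4.06%. The 20, the 7 and the 6 include Rab3c U54807_at, which was bright enough to be tested only through its L4 and sham signals. With the filter at the 60th percentile, which drops both Rab3c probe sets, 18 of 20 were below 0 at a median of -0.35 (-0.01 over all). Leaving out the L5 pool of 50 days gave a median of -0.44, beside 0.02 over all probe sets. Dropping a sham pool gave -0.41 (50 days) or -0.42 (28 days), beside 0.01 and 0.04 over all. Dropping an L4 pool left the median at -0.35. With every array scaled to its hybridisation controls, 11 of 22 passed at a median of -0.85, while 2895 of 15721 passed at a median of -0.43.

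**Figure D1:**
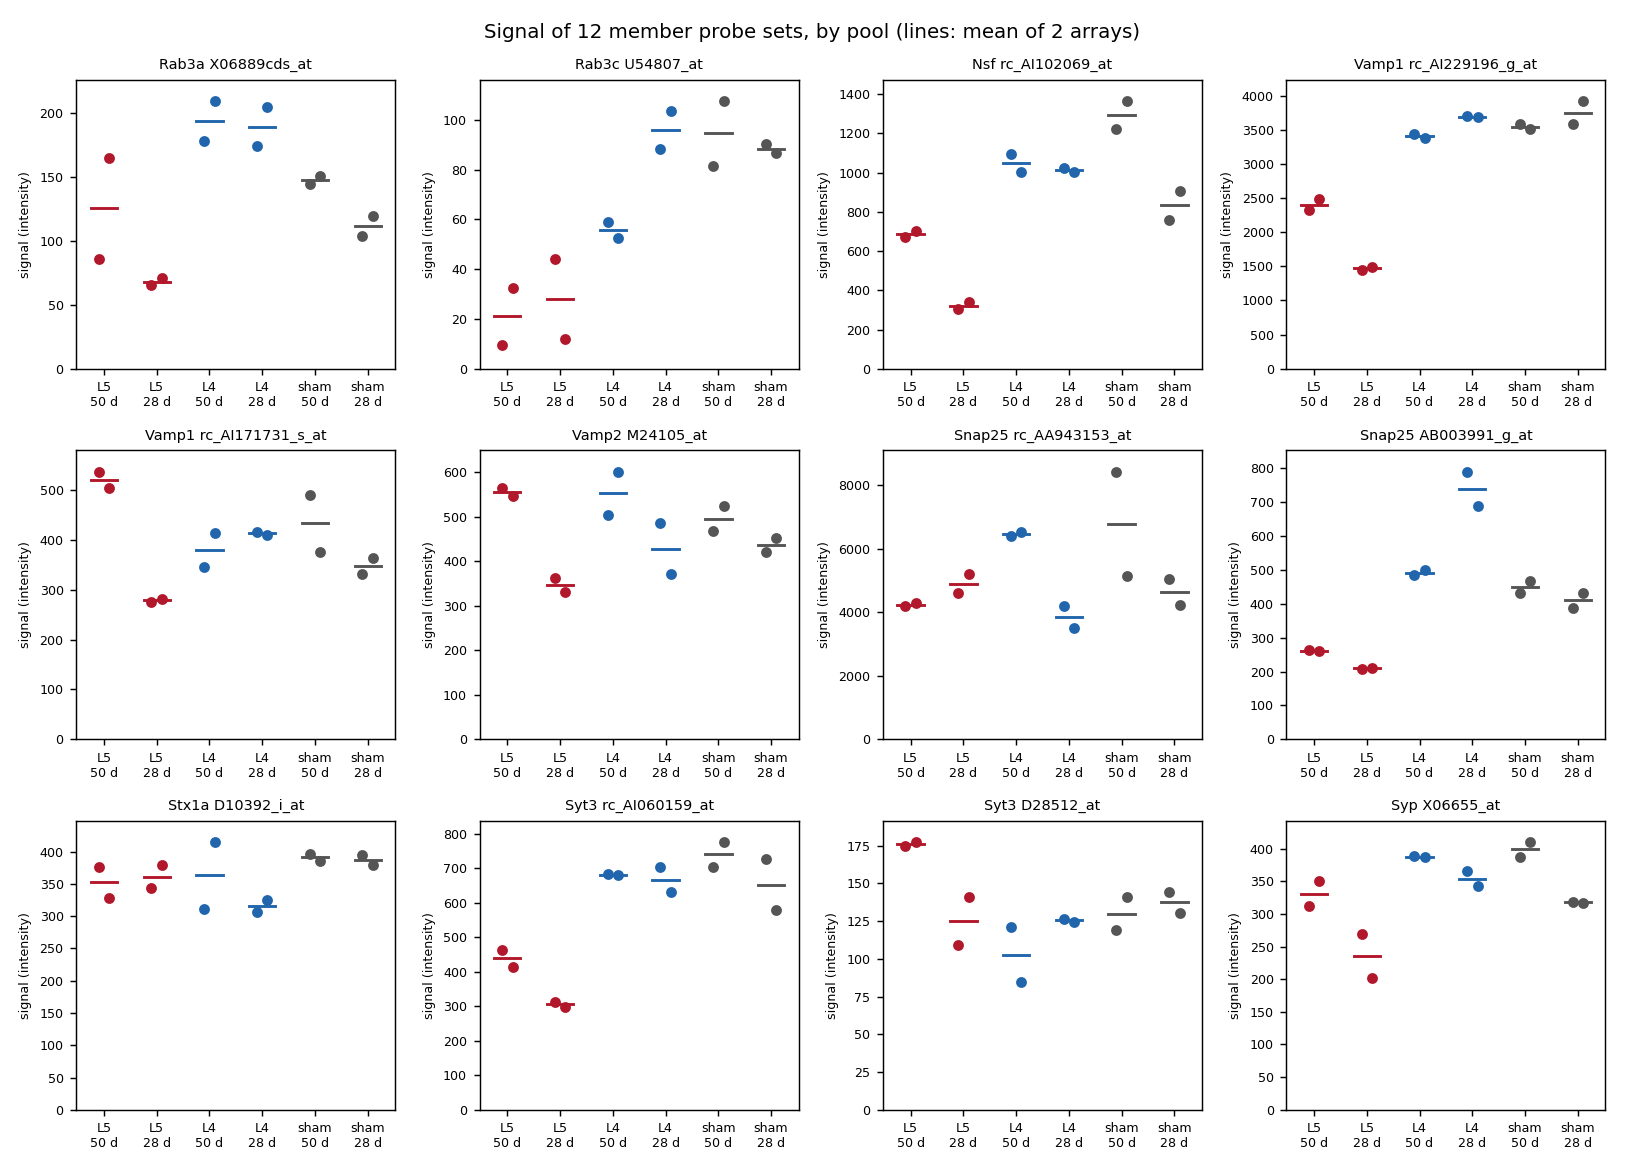
Signal (intensity, linear scale, vertical axis from 0) of 12 probe sets of the vesicle release genes on both arrays of each of the 6 pools; points are arrays and lines the mean of 2 arrays, with L5 in red, L4 in blue and sham in grey. The L5 points lie below all others for Nsf rc_AI102069_at, Rab3c U54807_at, Vamp1 rc_AI229196_g_at, Syt3 rc_AI060159_at and Snap25 AB003991_g_at, and overlap the sham points for the other 7.

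Nsf, the ATPase that separates spent SNARE complexes, had signals on probe set rc_AI102069_at of 670.1 and 700.5 in L5 at 50 days and 302 and 341 in L5 at 28 days. In L4 it had 1097 and 1005 at 50 days and 1024 and 1004 at 28 days, and in sham 1222 and 1364 at 50 days and 760.3 and 904 at 28 days. All 4 L5 arrays lay below the other 8, and the 28-day pool was the lowest. Nsf averaged 503 ± 257 in L5, 1032 ± 26.2 in L4 and 1063 ± 326 in sham (SD, n = 2 pools each). The difference of L5 from sham was -1.10 ± 0.23, or 0.465 of the sham level, and missed the threshold (adjusted p = 0.058, and 0.00076 to 0.36 over 21 alternatives). The other probe sets of Nsf were too dim to test, with signals from 3.5 to 33.6 on AF089839_at and from 2.4 to 33.6 on AF091834_at.

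Of the Rab3 GTPases, Rab3c had the lowest fitted L5 difference of the 22 probe sets, on U54807_at. Its signals were 9.4 and 32.6 in L5 at 50 days and 43.9 and 12.1 in L5 at 28 days. They were 59.1 and 52.7 in L4 at 50 days and 88.2 and 104 at 28 days, and 81.6 and 108 in sham at 50 days and 90.2 and 86.7 at 28 days. The L5 arrays lay below all L4 and sham arrays, but the arrays of each L5 pool differed by more than 3-fold from each other. The difference from sham was -1.59 ± 0.35 (adjusted p = 0.062), and it moved with the pseudocount, to -2.11 with 1 and -0.95 with 50. This was the only one of the 22 with a condition under the filter on dim signals: it averaged 24.5 in L5, 75.9 in L4 and 91.5 in sham, against a filter of 39.3 on chip A, and passed on its mean of 64.0 over all arrays. It was tested, and counts as the brighter probe set of Rab3c, through its L4 and sham signals, so its low L5 level supports nothing by itself. The other probe set of Rab3c, U37099_s_at, did not show this: it averaged 48.8 ± 6.47 in L5, 46.3 ± 1.13 in L4 and 53.1 ± 1.91 in sham (SD, n = 2 pools each), with overlapping arrays.

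Rab3a, the most abundant Rab3 of brain synapses, had signals of 86.2 and 165 in L5 at 50 days and 65.9 and 70.7 in L5 at 28 days. It had 178 and 209.5 in L4 at 50 days, 174 and 205 in L4 at 28 days, 145 and 151 in sham at 50 days and 104 and 119.5 in sham at 28 days. The 28-day L5 pool was the lowest and 1 of the 50-day L5 arrays lay above every sham array, so that L5 and sham overlapped, with a difference of -0.45 ± 0.26 (adjusted p = 0.40). The L4 arrays lay above all others.

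Vamp1 is the vesicle SNARE of many sensory and motor neurons. Its 5 probe sets were below 0 in L5, from -0.96 to -0.02 (the last at 0.03 with quantile normalization), and 2 of them, which share a source sequence, had an unadjusted p under 0.05. On rc_AI229196_g_at the signals were 2320.4 and 2482 in L5 at 50 days and 1451 and 1497 in L5 at 28 days. They were 3437 and 3374 in L4 at 50 days, 3697 and 3688 in L4 at 28 days, 3578 and 3509 in sham at 50 days and 3578 and 3918 in sham at 28 days. The L5 arrays lay below all 8 others, by less at 50 than at 28 days, and the difference from sham was -0.95 ± 0.23 (0.519 of the sham level, adjusted p = 0.096).

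The paired probe set rc_AI229196_at had 1822 and 2197 in L5 at 50 days and 719.7 and 942 in L5 at 28 days, against 2824 and 2819.5 in sham at 50 days and 2146 and 2389 in sham at 28 days. Its L5 and sham arrays overlapped across the days, because 1 L5 array of 50 days exceeded 1 sham array of 28 days, and its difference was -0.96 ± 0.28 (adjusted p = 0.14). M24104_at had 324 and 249.9 in L5 at 50 days and 99.4 and 80.1 in L5 at 28 days, against 247 and 259 and 144 and 194 in sham at 50 and 28 days. Only the 28-day L5 pool was low on this probe set, and without that pool its difference turned to 0.24, from -0.33 ± 0.28. Its partner M24104_g_at stood at -0.63 ± 0.30 (adjusted p = 0.31). The fifth probe set, rc_AI171731_s_at, stood at -0.02 ± 0.23, with signals of 538 and 504 in L5 at 50 days and 276 and 282 in L5 at 28 days, either side of the sham arrays of the same day.

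Vamp2, the principal vesicle SNARE of central synapses, had differences from sham on both sides of 0. They were -0.08 ± 0.19 on M24105_at (0.05 with quantile normalization), -0.01 ± 0.24 on rc_AI101103_s_at, -0.43 ± 0.19 on rc_AA944789_f_at and 0.15 ± 0.18 on rc_AA998361_f_at, with adjusted p of 0.30 to 0.99. On rc_AA944789_f_at both L5 arrays of 50 days lay below those of sham, and the 28-day arrays overlapped. The difference on rc_AA998361_f_at was -0.42 with arrays scaled to hybridisation controls, beside a median of -0.43 over all probe sets. On M24105_at the signals were 564 and 545 in L5 at 50 days and 363 and 332 in L5 at 28 days, against 468 and 524 in sham at 50 days and 421 and 452 in sham at 28 days. The 50-day L5 arrays were above those of sham and the 28-day L5 arrays below them. The 95% interval of the difference, -0.50 to 0.34, allows a fall or a rise of that size; whether Vamp1 and Vamp2 differed in their response was not tested.

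Among the target membrane SNAREs, Snap25 was below 0 in L5 on all 4 of its tested probe sets, from -0.84 to -0.27. On AB003991_g_at the signals were 263 and 261 in L5 at 50 days and 208 and 211 in L5 at 28 days. They were 485 and 499 in L4 at 50 days, 791 and 689.6 in L4 at 28 days, 432 and 467 in sham at 50 days and 389 and 433 in sham at 28 days. The L5, sham and L4 arrays of this probe set formed 3 separate ranges in that order, from low to high. L5 stood at -0.84 ± 0.23 against sham (0.559 of the sham level, adjusted p = 0.11).

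The partner AB003991_at had 433 and 466 in L5 at 50 days and 232 and 335 in L5 at 28 days, against 617 and 470.3 in sham at 50 days and 641 and 534 in sham at 28 days. Its L5 arrays were below all sham arrays by a narrow margin at 50 days, and the difference was -0.65 ± 0.22 (adjusted p = 0.18). The brightest Snap25 probe set, rc_AA943153_at, had 4183 and 4276 in L5 at 50 days and 4588 and 5209.7 in L5 at 28 days, against 8418 and 5123 in sham at 50 days and 5039 and 4213 in sham at 28 days. The arrays of the 50-day sham pool were far apart there, and the difference of -0.27 ± 0.24 (adjusted p = 0.59) turned to 0.15 without the L5 pool of 50 days. AB003992_s_at stood at -0.36 ± 0.29.

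Stx1a, a syntaxin of the plasma membrane, had 2 probe sets at small differences beside their error. Its probe set D10392_i_at had 376 and 329 in L5 at 50 days and 344 and 379 in L5 at 28 days, against 397 and 386 in sham at 50 days and 395 and 379 in sham at 28 days. The difference was -0.12 ± 0.19, with a 95% interval of -0.53 to 0.29 (adjusted p = 0.77). On D12519_s_at the arrays of a pool differed widely, as in L5 at 50 days (146 and 50.5), L5 at 28 days (95.2 and 20.7) and sham at 28 days (23.4 and 88.4). Its difference of -0.27 ± 0.35 turned to 0.21 without the sham pool of 50 days and to 0.87 on the first array of each pool alone.

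Syt3, a synaptotagmin with high calcium affinity, had opposite values on its 2 probe sets. On rc_AI060159_at the signals were 464 and 415 in L5 at 50 days and 313 and 298 in L5 at 28 days. They were 684 and 679.6 in L4 at 50 days, 703 and 631 in L4 at 28 days, 705 and 776 in sham at 50 days and 726 and 578 in sham at 28 days. All L5 arrays lay below all others at both days, and the difference from sham was -0.89 ± 0.18 (0.541 of the sham level, adjusted p = 0.065). It was -0.81 without the chip B sham array whose day is given in 2 ways (adjusted p = 0.098). On D28512_at the signals were 175 and 177 in L5 at 50 days and 109 and 141 in L5 at 28 days, against 119 and 141 in sham at 50 days and 144 and 130.5 in sham at 28 days. The difference there was 0.14 ± 0.26. It was -0.33 with scaling to hybridisation controls (median over all probe sets -0.43), -0.05 with median centring (-0.08 over all) and -0.18 without the L5 pool of 50 days.

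Syp, synaptophysin, an abundant protein of the vesicle membrane, had 311 and 349.8 in L5 at 50 days and 269 and 201 in L5 at 28 days. It had 388 and 386 in L4 at 50 days, 366 and 342 in L4 at 28 days, 387 and 409.8 in sham at 50 days and 319 and 317 in sham at 28 days. The L5 pool lay below the sham pool of the same day both times, but 1 L5 array of 50 days exceeded the sham arrays of 28 days. The difference was -0.35 ± 0.20 (adjusted p = 0.40).

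**Figure D2:**
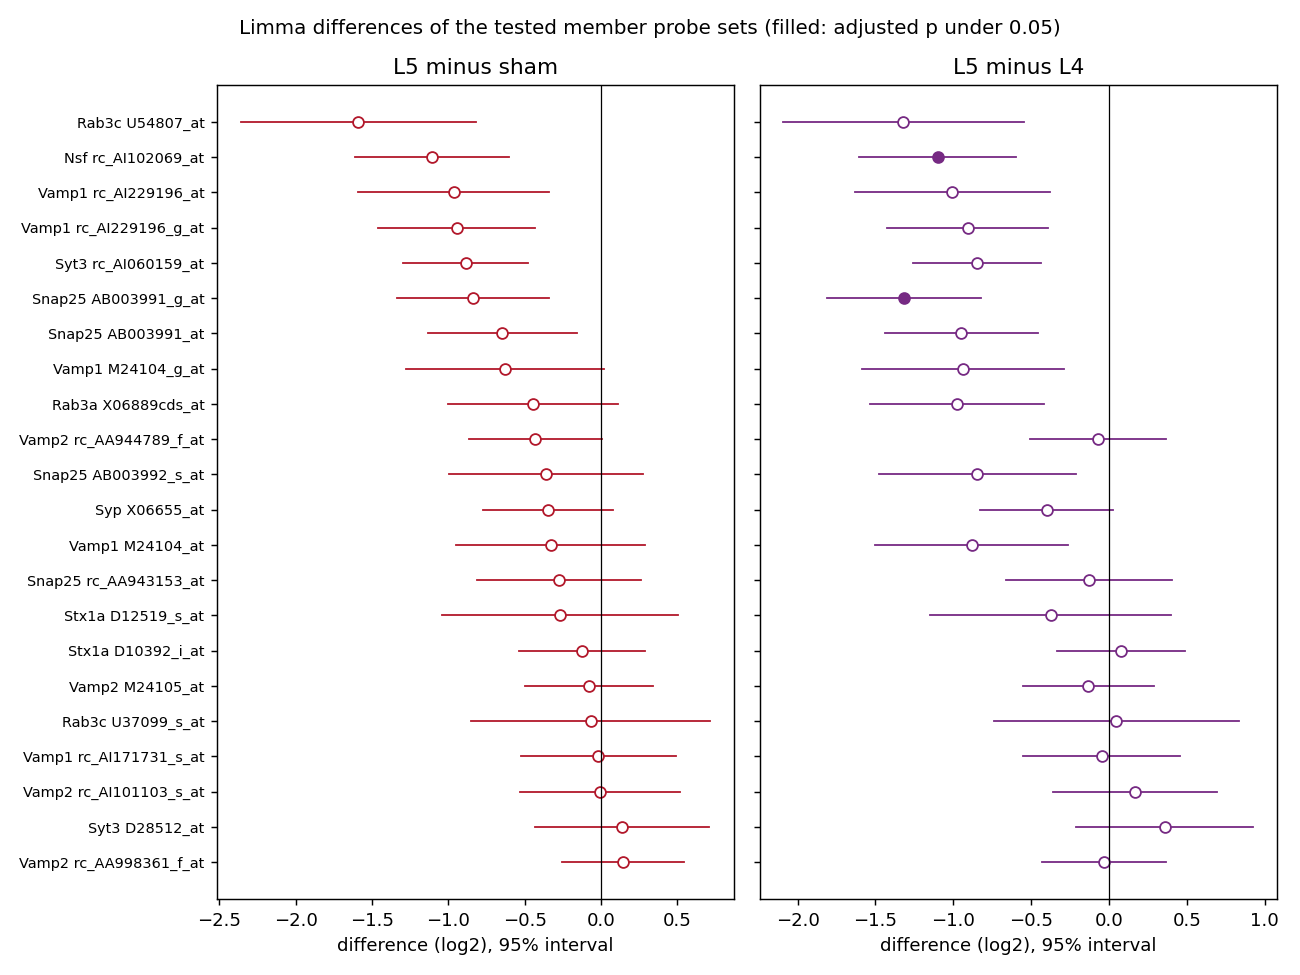
Limma differences on the log2 scale (points) with 95% intervals (lines) for the 22 tested probe sets, L5 minus sham on the left and L5 minus L4 on the right; filled points have an adjusted p under 0.05. On the left 20 of 22 points lie below 0 and 0 are filled, and on the right 18 lie below 0 and 2 are filled, Snap25 AB003991_g_at and Nsf rc_AI102069_at.

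Against L4, the neighbouring ganglion whose own nerve was not ligated, L5 stood lower as well, with a Snap25 and an Nsf probe set past the threshold. These comparisons share the L5 pools with those above, so the values are not a second measurement. Of 22 probe sets 2 were called lower and 0 higher, against 1.27% of all probe sets called (1.01% lower). At an unadjusted p under 0.05 there were 11 of 22 lower and 0 higher, against 10.9% and 8.47%. The 4 L5 arrays lay below the 4 L4 arrays for 10 of 22, against 9.06% of all probe sets, and above them for 0, against 5.22%. The median was -0.62, against 0.04 over all probe sets, and 18 of 22 were below 0, against 46.3%. Rab3c U54807_at, tested only through its L4 and sham signals, is among the 11, the 10 and the 18. With the filter at the 60th percentile, which drops both Rab3c probe sets, 17 of 20 were below 0 at a median of -0.62 (-0.01 over all). Leaving out the 28-day L5 pool gave a median of -0.37, with 16 of 22 below 0.

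Snap25 AB003991_g_at fell by 1.32 on the log2 scale (SE 0.23, 0.402 of the L4 level, adjusted p = 0.027), with means of 236 ± 36.9 in L5 and 616 ± 175 in L4 (SD, n = 2 pools each). Without the L4 pool of 28 days, its highest, the difference was -0.92 and missed the threshold (adjusted p = 0.093). It missed it too with 1 technical array per pool, the first (adjusted p = 0.16) or the second (0.11), and it was lost in 7 of 21 alternatives in all. Nsf rc_AI102069_at fell by 1.10 (SE 0.23, 0.466 of the L4 level, adjusted p = 0.047) and lost the call in 14 of 21 alternatives. These included leaving out the L4 pool of 28 days (-0.71, adjusted p = 0.28), the L5 pool of 28 days (-0.75, adjusted p = 0.10) or the sham pool of 50 (adjusted p = 0.056) or 28 days (adjusted p = 0.054), and using 1 technical array per pool, the first (adjusted p = 0.17) or the second (0.15). Over the 22 probe sets the median was -0.67 without the 50-day L5 pool, beside 0.02 over all probe sets. It was -0.81 without the 50-day L4 pool and -0.44 without the 28-day L4 pool (0.03 and 0.01 over all).

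The other 9 probe sets with an unadjusted p under 0.05 in L5 against L4 missed the threshold after adjustment (0.067 to 0.15). Rab3c U54807_at stood at -1.32 ± 0.35 and Rab3a at -0.98 ± 0.26. Vamp1 stood at -1.01 ± 0.28 on rc_AI229196_at, -0.91 ± 0.23 on rc_AI229196_g_at, -0.94 ± 0.30 on M24104_g_at and -0.88 ± 0.28 on M24104_at. Syt3 rc_AI060159_at stood at -0.85 ± 0.18, and Snap25 at -0.95 ± 0.22 on AB003991_at and -0.84 ± 0.29 on AB003992_s_at. Other tested probe sets of these genes stood nearer to 0 or above it (adjusted p of 0.46 to 0.96). Snap25 stood at -0.13 ± 0.24 on rc_AA943153_at, its brightest, and Syt3 at 0.36 ± 0.26 on D28512_at. Vamp1 rc_AI171731_s_at stood at -0.05 ± 0.23 and Rab3c U37099_s_at at 0.05 ± 0.36. By gene, 4 of 5 probe sets of Vamp1 and 3 of 4 of Snap25 had an unadjusted p under 0.05, and 0 of 4 of Vamp2 and 0 of 2 of Stx1a.

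In L4 against sham the vesicle release genes lay on both sides of 0. None of 22 probe sets passed in limma, nor did any of the 15721 (0% called), and 0 of 22 had an unadjusted p under 0.05, against 1.55% of all higher and 1.16% lower. The median was 0.04 (0.00 over all probe sets), with 12 of 22 above 0, against 49.4%. The 4 L4 arrays lay above the 4 sham arrays for 2 of 22, against 1.95% of all probe sets, and below for 0, against 1.88%. These were Rab3a (0.53 ± 0.26) and Snap25 AB003991_g_at (0.48 ± 0.23), both with an adjusted p that rounds to 1.0. Rab3a averaged 192 ± 3.11 in L4 and 130 ± 25.6 in sham, and Snap25 AB003991_g_at 616 ± 175 in L4 and 430.1 ± 27.4 in sham (SD, n = 2 pools each). The median was -0.12 without the L4 pool of 28 days.

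**Figure D3:**
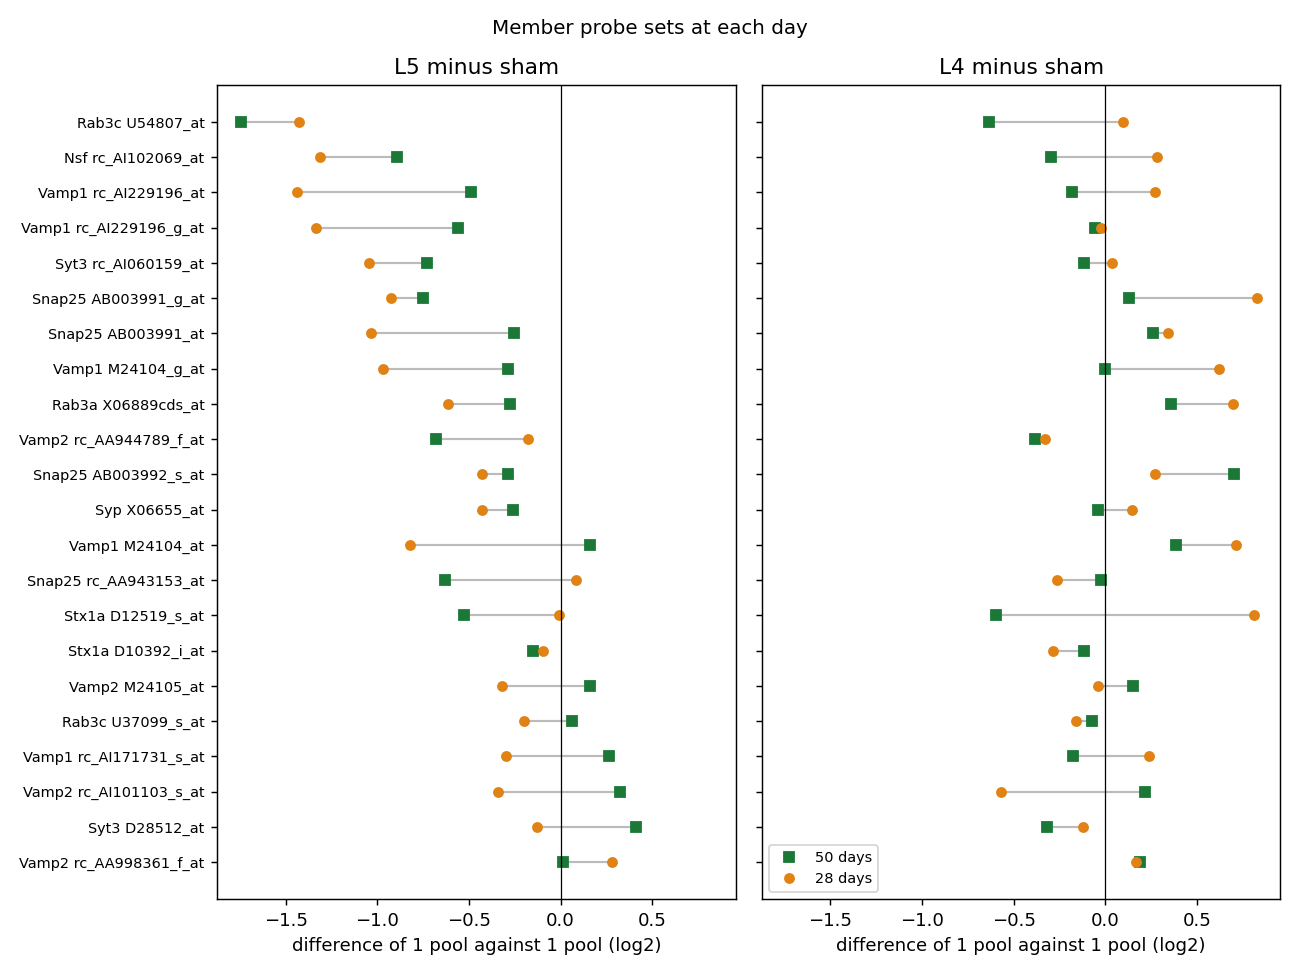
Differences on the log2 scale of 1 pool against 1 pool, L5 minus sham on the left and L4 minus sham on the right, at 50 days (green squares) and 28 days (orange circles), for the 22 tested probe sets in the order of their fitted L5 difference. In L5 15 of 22 lie below 0 at 50 days and 20 of 22 at 28 days, while in L4 13 of 22 lie below 0 at 50 days and 8 of 22 at 28 days.

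At each day there is 1 pool per condition, so the days are described without a test. At 50 days 15 of 22 probe sets were below 0 in L5 against sham, with a median of -0.28, and at 28 days 20 of 22, with a median of -0.43 (all probe sets 0.03 and 0.01). The arrays of L5 lay below those of sham for 12 of 22 at 50 days, against 25.2% of all probe sets, and for 13 of 22 at 28 days, against 24.6%. The difference was below 0 at both days for 14 of 22, against 29.3% of all probe sets, and lower at 28 than at 50 days for 16 of 22, against 51.7%. Vamp1 rc_AI229196_at stood at -0.49 at 50 days and -1.44 at 28 days, and Snap25 AB003991_at at -0.26 and -1.03. Nsf rc_AI102069_at stood at -0.89 and -1.32. Rab3c U54807_at, tested only through its L4 and sham signals, is among the counts below 0 and stood, in the other order, at -1.75 and -1.43.

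In the fit over all conditions, which holds the same L5 pools, 19 of 22 were higher at 50 than at 28 days, against 54.1% of all probe sets, with a median of 0.32 (0.04 over all). Leaving out 1 L5 pool, of 50 or of 28 days, gave a median of 0.16, with 7 of 22 below 0, and with median centring it was 0.19 (-0.05 over all). None passed in limma (0.286% of all did), and 5 were higher and 0 lower at an unadjusted p under 0.05, against 9.78% and 8.94%. These were Vamp1 M24104_at (0.78 ± 0.23), Vamp1 M24104_g_at (0.66 ± 0.24), Nsf rc_AI102069_at (0.57 ± 0.19), Vamp2 M24105_at (0.40 ± 0.16) and Vamp2 rc_AA944789_f_at (0.37 ± 0.16), with adjusted p of 0.14 to 0.25. Within a condition the median of 50 minus 28 days was 0.51 in L5, 0.04 in L4 and 0.20 in sham. Over all probe sets these medians were 0.05, 0.03 and 0.02. Within L5 17 of 22 were above 0, beside 8413 of all 15721. The sham pools moved for some members too: Nsf was higher at 50 days by 0.63 and Vamp1 M24104_at by 0.56. The median of the fit over all conditions was 0.31 without either L4 pool.

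Values of cell type markers in the same pools stand beside these differences. Each marker counts by its brightest tested probe set, and over all genes taken that way 0.665% passed in L5 against sham and 50% were below 0. None of the neuron, satellite glia, Schwann cell, macrophage and vessel markers passed, and 1 of 12 skeletal muscle markers did, Tpm2 (1.16 ± 0.21, adjusted p = 0.047), named here because it passed. Of 15 neuronal markers 13 were below 0 in L5 against sham, with a median of -0.24, and their summed signal was 57875 in L5 at 50 days, 48861 in L5 at 28 days, and 55295 to 61604 in the L4 and sham pools. At an unadjusted limma p under 0.05 there were 5 neuronal markers lower and 1 higher, against 10.6% and 6.39% of all genes taken that way. The neuronal markers ran from -0.97 to 0.52, and of the 2 brightest Uchl1 stood at -0.17 ± 0.25 and Nefl, a neurofilament, at 0.26 ± 0.20. All 12 tested macrophage markers were above 0 (median 0.70). The 14 on the arrays, tested or not, summed to 2209 in L5 at 50 days and 6398 in L5 at 28 days. Their sums were 1724 to 2259 in the other pools. Lyz2 stood at -0.18 at 50 days and 1.76 at 28 days, and Cd68 at 0.02 and 0.62. The 12 tested skeletal muscle markers had a median of 1.10, with Acta1 at 1.32 ± 0.50 and Myh1 at 0.48 ± 0.19. The 13 on the arrays, tested or not, summed to 2624 in L5 at 50 days and 4660 in L5 at 28 days. They summed to 2075 to 2221 in L4, and to 2318 in sham at 50 days and 1212 in sham at 28 days.

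Myelinating Schwann cell markers had a median of 0.39 (7 of 7 above 0, with Mbp at 0.22 ± 0.23 and Pmp22 at 0.39 ± 0.19). Satellite glia had -0.09 (4 of 7 below 0, with Apoe at 0.48 ± 0.19 and S100b at -0.47 ± 0.19), and vessel cells 0.05 (4 of 7 above 0, with Cdh5 at 0.56 ± 0.18 and Acta2 at -0.30 ± 0.25). No marker of these lists was at 0 on any array. Of the vesicle release genes by their brightest tested probe sets, U54807_at for Rab3c among them, 9 of 9 were below 0 with a median of -0.45, beside a median of 0.00 over all genes taken that way. The part of other cell types in these differences was not tested.

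**Figure D4:**
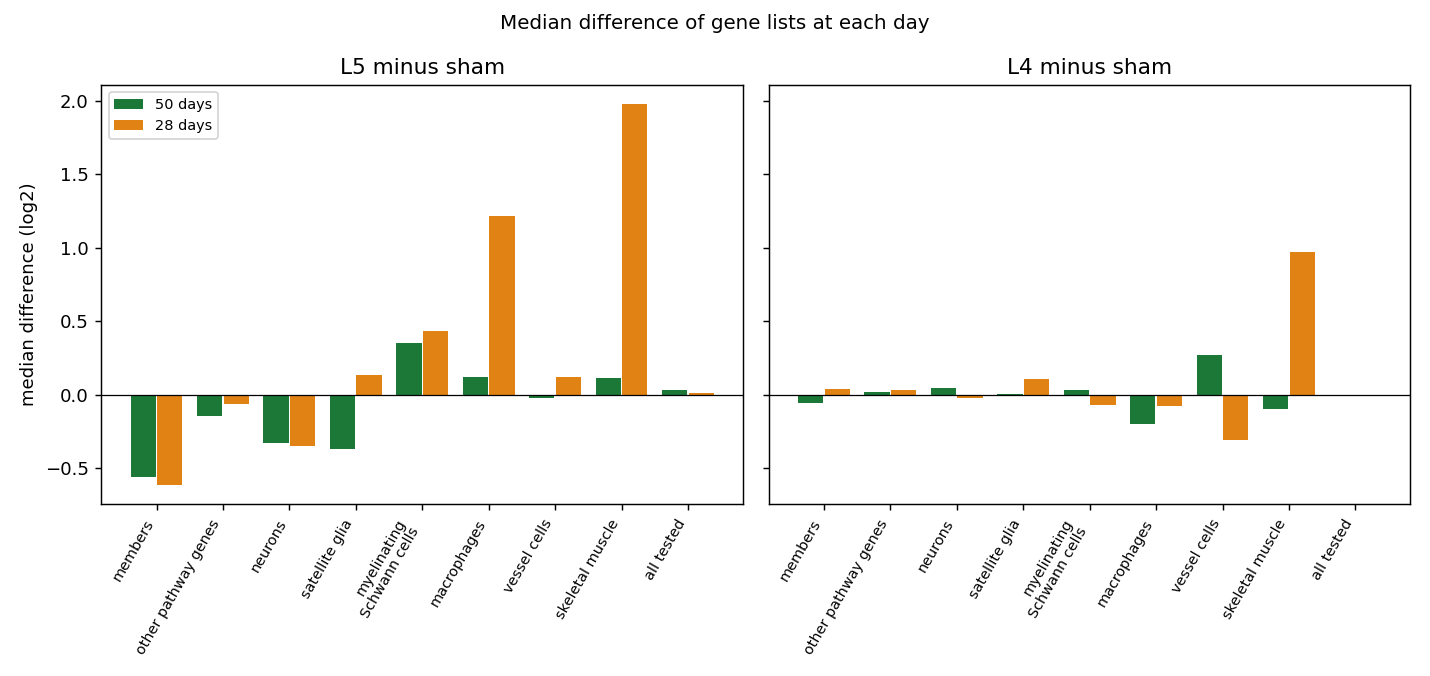
Median difference on the log2 scale at 50 days (green) and 28 days (orange), 1 pool against 1 pool, L5 minus sham on the left and L4 minus sham on the right, for the vesicle release genes (members), the other genes of the pathway, 6 lists of cell type markers and all tested probe sets; each gene counts by its brightest tested probe set. In L5 the vesicle release genes stand at -0.56 at 50 days and -0.62 at 28 days, and neuronal markers at -0.33 and -0.35, while macrophage markers stand at 0.12 and 1.21 and skeletal muscle markers at 0.12 and 1.98.

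The wider pathway was read from 5 lists of 79 other genes, of which 47 had a tested probe set. None of the 47 passed in L5 against sham in limma, and at an unadjusted p under 0.05 there were 9 lower and 1 higher, against 10.6% and 6.39% of all genes taken by their brightest probe set (0.665% passed after adjustment). The median was -0.16 and 34 of 47 were below 0, against 50% of all genes. Medians by list were -0.06 for the fusion machinery (9 of 12 below 0), -0.16 for the Rab cycle and docking (6 of 7), -0.04 for calcium sensors and priming (4 of 7), -0.24 for vesicle membrane and cargo (12 of 16) and -0.34 for the active zone and endocytosis (3 of 5).

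Of the 10 genes with the lowest p, the priming factor Cadps stood at -0.86 ± 0.20 (adjusted p = 0.071) and its relative Cadps2 at -0.76 ± 0.28. Dnm1, the GTPase that pinches off endocytic vesicles, stood at -0.72 ± 0.19, and Synj1, a lipid phosphatase of endocytosis, at -0.57 ± 0.17. Napa, the adaptor through which Nsf acts on SNARE complexes, stood at -0.60 ± 0.18. The synapsins, which tether vesicles in reserve, stood at -0.76 ± 0.21 (Syn2) and -0.58 ± 0.17 (Syn1). The vesicle proteins Dnajc5, a chaperone, and Syngr3, a relative of synaptophysin, stood at -0.63 ± 0.18 and -0.50 ± 0.19. Slc18a2, which loads monoamines into vesicles, stood at 0.91 ± 0.40. Adjusted p ran from 0.071 to 0.28. The median over all tested genes of the lists was -0.09 without the L5 pool of 50 days, and stayed at -0.16 without either L4 pool.

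A mean profile was taken over the 9 tested genes, with Rab3c on U54807_at, which was tested only through its L4 and sham signals. Over the 6 pools, each gene centred on its own mean, this profile was -0.23 in L5 at 50 days and -0.63 in L5 at 28 days. It was 0.25 and 0.17 in L4, and 0.34 and 0.09 in sham. Among 11563 probe sets of genes in no list, those closest to it were of Pgbd5, Reep5, Arhgap35, Klhdc8a and Ocel1, with a root mean square difference of 0.060 to 0.068 on the log2 scale over 6 pools. Reep5, for example, stood at -0.24 in L5 at 50 days and -0.74 in L5 at 28 days, 0.24 and 0.25 in L4, and 0.36 and 0.14 in sham.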

How the data were processed

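The authors deposited 1 intensity per probe set and array, linear in scale. Per the submitters' processing notes it was computed with MAS5, whose version was not given in the sources used here. No detection calls were used, so low intensity does not show absence. The mean of each array without the highest and lowest 2% of signals lay between 150.07 and 150.21, which shows a common scaling before deposit. Here each array was scaled to the same trimmed mean within its chip type, and values were taken as log2(signal + pseudocount), with the 20th percentile of all signals as pseudocount (12.8 on chip A, 17.7 on B, 20.2 on C), which understates differences of dim probe sets. Control probe sets, and probe sets under the 40th percentile of mean signal, were not tested.

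The technical arrays of a pool share RNA and were averaged. limma 3.58.1 in R 4.3.3 (lmFit, then eBayes with an intensity trend) was run on the 6 pools per chip type, with terms for condition and day. Benjamini-Hochberg adjustment covered all 3 chip types together, and the threshold was 0.05. The pools of 50 and 28 days are the replicates of a condition. The p-values set each difference against the spread of the pools left after the condition and day terms, moderated over probe sets. All conditions share 1 estimate of that spread, and the number of pools limits the precision. The code was tested on simulated data.

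Names came from the platform annotation. It gives 1 gene for 7018 probe sets of chip A, 5363 of chip B and 5833 of chip C, several genes for 308, 38 and 45, and no gene for 1473, 3390 and 2911. The text names every probe set of the 10 genes and the 10 other pathway genes with the lowest p in L5 against sham. It also names the 5 closest profiles, the 2 brightest markers of each cell type list and the 8 axon injury genes. Where a gene stands for a list it counts by its brightest tested probe set. The genes and lists were chosen with earlier results of these data known. Alternatives covered the scaling, the pseudocount, the filter, the variance prior, the arrays and pools used, and the day term.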

Additional observations from a re-analysis of the deposited data

Results flagged for a closer look

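For some probe sets the pools of the same 2 conditions stood apart in opposite directions at the 2 days, with no overlap of arrays at either day. With 1 pool per condition and day, this difference between the days was not tested. In L5 against sham this held for 2 of 22 tested probe sets, against 6.33% of all probe sets: Vamp1 rc_AI171731_s_at stood at 0.27 at 50 days and -0.30 at 28 days, and Vamp2 M24105_at at 0.16 at 50 days and -0.32 at 28 days. In L5 against L4 it held for 2 of 22, against 7.94%: Vamp1 rc_AI171731_s_at stood at 0.44 at 50 days and -0.54 at 28 days, and Snap25 rc_AA943153_at at -0.61 at 50 days and 0.35 at 28 days. In L4 against sham it held for 3 of 22, against 8.87%. Nsf rc_AI102069_at stood at -0.29 at 50 days and 0.28 at 28 days, Vamp1 rc_AI229196_at at -0.18 and 0.27, and Vamp2 rc_AI101103_s_at at 0.22 and -0.57. The arrays of a pool share RNA, so a gap between pools that exceeds the gap between arrays is no replicate of the condition.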

How the results depend on the processing

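Counts are of member probe sets past the limma threshold. In L5 against sham the count was 0 of 22, beside 120 of all 15721 probe sets. It became 5 with median centring (median -0.53), beside 415 of all. With scaling to hybridisation controls it was 11 (median -0.85), beside 2895 of all at a median of -0.43. It was 6 when pool was a random block in a fit to all 12 arrays, beside 1114 of all. Adding the replicate block gave 6, beside 977, and using only the L5 and sham pools gave 4, beside 396. Leaving out a pool or 1 array of each pool gave medians of -0.53 to -0.20. The count was 0 without the first array of each pool, beside 2 of all, and 0 without the second, beside 0. In L5 against L4 the count was 2, beside 199 of all 15721 probe sets. It became 0 with quantile normalization, no filter, no intensity trend or no day term (53, 19, 0 and 0 of all tested). It was 1 with a pseudocount of 1 or a filter at the 60th percentile (136 and 205 of all tested). Without the chip B sham array of uncertain day it was 1, beside 145 of all. With median centring it was 8, beside 667. With hybridisation controls it was 18 (median -1.22), beside 6694 at a median of -0.64. The random block gave 9, beside 1388, and 9 with the replicate block added, beside 1186. Leaving out pools or arrays gave 0 to 10.

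For L4 against sham the median was 0.26 with hybridisation controls, beside 0.20 over all probe sets. It was -0.12 to 0.18 with a pool or array left out. The count was 0 in every alternative that kept 2 pools per condition, beside at most 7 of all. For 50 against 28 days the median of 0.32 was 0.16 to 0.31 with a pool left out. The count was 2 with the random block, beside 1031 of all, and 2 with the replicate block added, beside 796. It was 0 without the first array of each pool, beside 5 of all, and 0 without the second, beside 2. For the other pathway genes in L5 against sham the count of 0 became 5 with median centring (median -0.27), 15 with hybridisation controls (-0.57), 7 with the random block, 6 with the replicate block and 2 with only the L5 and sham pools, and 0 to 3 with a pool or array left out (medians -0.20 to -0.0868). That median was -0.31 with the filter at the 60th percentile and -0.0950 without the chip B sham array of uncertain day. The technical replicate numbers do not pair the arrays: deviations of same-numbered arrays correlated at -0.10 to 0.11.

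Some differences of L5 from sham changed sign. Syt3 D28512_at stood at -0.0539 with median centring and -0.33 with hybridisation controls, and Vamp2 rc_AA998361_f_at at -0.42 with hybridisation controls. With quantile normalization Vamp2 M24105_at stood at 0.0471 and Vamp1 rc_AI171731_s_at at 0.0262. Over all probe sets the median was -0.08 with median centring, -0.43 with hybridisation controls and -0.01 with quantile normalization. With a pool or array left out, the ranges that crossed 0 were -1.40 to 0.87 for Stx1a D12519_s_at, -0.18 to 0.46 for Syt3 D28512_at, -0.90 to 0.24 for Vamp1 M24104_at, -0.27 to 0.11 for Vamp2 M24105_at, -0.37 to 0.36 for Vamp2 rc_AI101103_s_at, -0.24 to 0.11 for Rab3c U37099_s_at, -0.69 to 0.15 for Snap25 rc_AA943153_at and -0.40 to 0.37 for Vamp1 rc_AI171731_s_at. The cause of these shifts was not tested.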
